A study of Mus musculus with 11 samples.

Results

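The genes described here are 43 autophagy and lysosome genes, chosen by name from the rows of the deposited tables whose symbol matched a member, out of 23238 genes measured. The members cover the ULK kinase complex (6 genes), the class III PI3-kinase complex (6), growth of the isolation membrane (5), the conjugation machinery (10), the LC3 and GABARAP proteins (5), cargo receptors (3), lysosomal membrane proteins (3), cathepsins (3) and the transcription factors Tfeb and Tfe3 (2). All 43 were measured in every library, and all 43 were among the 18248 genes with enough signal to be tested. No value of these data entered the matching rule.

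RNA was sequenced from mouse cells labelled as cavernous endothelial cells, the lining of the blood spaces of the penis, in 11 libraries. Normal glucose had 3 libraries, high glucose had 4, and high glucose with Hsp70 (a heat shock chaperone protein, called the Hsp70 group below) had 4, all at 5 days. Every group shared the same medium 199 with 20% serum, antibiotics and 0.5 mg/ml heparin, while glucose concentrations and the amount and form of Hsp70 are not in the labels. The deposited file names carry a set number: sets 3, 4 and 5 hold 1 library of each group, and set 2 holds 1 high glucose and 1 Hsp70 library. Nothing in the labels says that the libraries came from separate cultures or animals, so p-values measure only the spread between these samples. In bulk RNA, fewer cells of a type and less RNA per cell cannot be told apart.

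Autophagy encloses cytoplasm in a double membrane and delivers it to the lysosome. The ULK kinase complex starts the process, the PI3-kinase complex marks the membrane where it grows, and a ubiquitin-like conjugation system attaches LC3 and GABARAP proteins, to which cargo receptors such as Sqstm1 (p62) bind. The filled vesicle fuses with the lysosome, where cathepsins and other acid hydrolases break down its contents, and Tfeb and Tfe3 activate many lysosomal and autophagy genes. Transcript levels do not measure the flow of material through this route.

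Because Tfeb and Tfe3 are known to bind the E-box letters CACGTG, promoters were searched for that core and for the longer form TCACGTGA, which contains the core. Both motifs read the same on both strands. A promoter here is the stretch from 250 bases before to 50 bases after a RefSeq start (GRCm38.p6). Of the members, 36 of 43 matched the RefSeq table. The core was in 8 of these 36 (22.2%), against 8.09% of 27025 genes with a promoter in the table. That table also holds genes that were not tested here. In the pathway lists used below the share ran from 0% (other regulators) to 37.5% (other lysosomal proteases). It was 30.8% for other selective receptors and 10% for other core autophagy genes. The longer form was in 3 of the 36 (8.33%: Atg3, Mcoln1 and Ctsd), against 1.12% of all. The 8 genes with the core were Atg3, Atg5, Atg7, Atg14, Lamp1, Mcoln1, Ctsd and Ctsl. These matches are letters in a window, not measured binding. Ulk3, Sqstm1, Optn, Atg2b and Tfeb, which the results below also describe, had no core in their promoters. Whether the motif has a part in any difference below was not tested. A few windows with the core and without an annotated GENCODE M21 exon are shown, from Atg3, Atg7, Lamp1 and Atg5. Capitals mark the motif.
Lamp1, chr8:13159080-13159160, plus strand: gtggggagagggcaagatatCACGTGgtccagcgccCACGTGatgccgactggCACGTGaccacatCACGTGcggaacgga
Atg3, chr16:45158715-45158783, plus strand: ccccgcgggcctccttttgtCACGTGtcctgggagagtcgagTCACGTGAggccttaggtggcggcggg
Atg7, chr6:114670944-114670989, plus strand: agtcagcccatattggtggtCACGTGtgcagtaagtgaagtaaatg
Atg5, chr10:44268305-44268338, plus strand: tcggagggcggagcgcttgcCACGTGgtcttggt
The Lamp1 window holds 4 copies of the core and the Atg3 window holds 2, of which 1 is the longer form. The Atg7 and Atg5 windows hold 1 copy each. GENCODE M21 places Atg7 at chr6:114643097-114860614 on the plus strand, so the Atg7 window, taken from a RefSeq start, lies inside the gene by that annotation.

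The library totals of normalized counts ran from 24789387 to 27807569, and the members together took from 0.716% (Hsp70 replicate 4) to 1.06% (normal glucose replicate 2). The labelled cell type was checked against 17 endothelial markers. All 17 reached a normalized count of 10 in the 3 libraries of set 3, and 10 to 13 of 17 did so elsewhere; outside set 3 Cldn5 lay at 0.00 to 0.24 and Tie1 at 0.00 to 2.33 on the log2 scale, while Cd34 lay at 11.66 or above in every library. The summed counts of 17 macrophage and leukocyte markers were 5197 to 6161 in set 3 and 566.1 to 886.9 elsewhere. All 10 fibroblast markers passed 10 in every library, with sums of 188500 to 432000, against 7599 to 12800 for the endothelial markers. These sums follow the most abundant markers. The endothelial sum was highest in the high glucose and Hsp70 libraries of set 2 (12090 and 12800), where Cldn5 was at 0.00. Because set 3 differed in these markers, counts of genes with the same sign in every set are also given without set 3.

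Set against each other per kilobase of exon, the 3 cathepsins, Lamp1 and Sqstm1 were at the top of the 43. The medians over 11 libraries, in normalized counts per kilobase, were 12040 for Ctsd (a lysosomal aspartic protease), 10320 for Lamp1 (a main glycoprotein of the lysosomal membrane), 7271 for Sqstm1, 6785 for Ctsl and 6178 for Ctsb (cysteine proteases). Gabarap followed at 2523, Lamp2 at 1703, Gabarapl1 at 1413 and Atg3, the E2-like enzyme that passes LC3 to its lipid, at 1333. Map1lc3a and Map1lc3b, which encode LC3A and LC3B, were close together at 788.8 and 768.2. The initiating kinase gene Ulk1 was at 199.4, the lysosomal channel gene Mcoln1 was at 129.5, rank 35 of 43, and Tfeb, at 40.2, was the second lowest, above Atg4d at 33.91. Neighbours in this order are not separated: the library ranges overlapped in 38 of 42 neighbouring pairs.

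**Figure D1:**
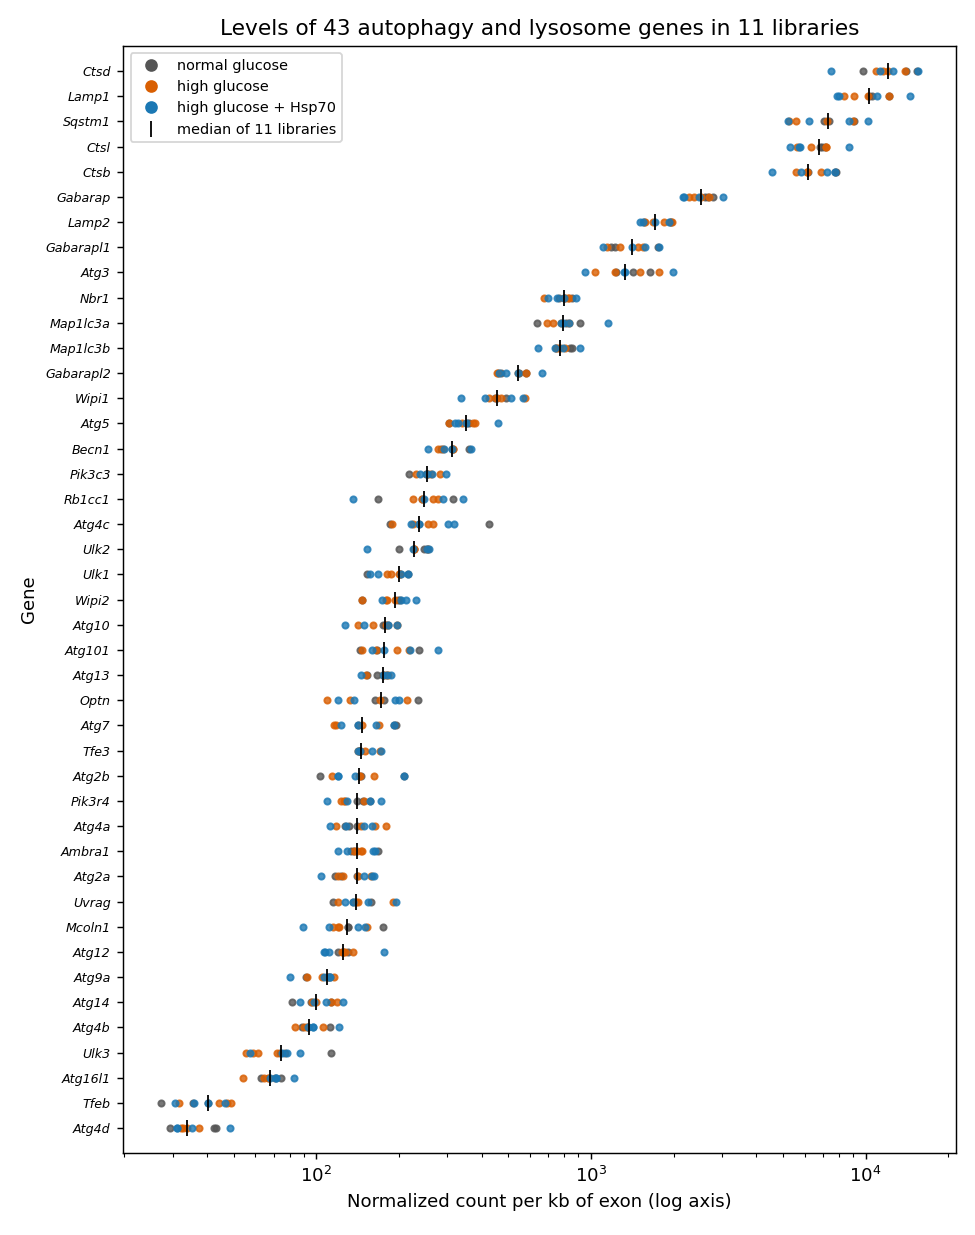
Normalized counts per kilobase of exon (log axis) of the 43 genes, 1 point per library coloured by group, with the median of 11 libraries as a bar. Ctsd (median 12040) is at the top and Atg4d (33.91) at the bottom, and points of the 3 groups are intermixed in nearly every row.

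Spread between libraries was narrow for most members. The SD of log2(normalized count + 1) over 11 libraries had a median of 0.21 over the members, against 0.37 over all genes tested and 0.25 over the 9436 genes at or above the lowest member mean. Tfe3 was the steadiest, with a range of 0.28 log2 units, and Rb1cc1, the scaffold of the ULK complex also called FIP200, was the widest at 1.33. Rb1cc1 lay at 11.27, 11.80 and 12.17 in normal glucose replicates 1 to 3, at 11.69, 11.80, 11.93 and 11.99 in high glucose and at 11.82, 12.05, 10.97 and 12.29 with Hsp70. Its lowest value, 10.97, and its highest, 12.29, both belonged to the Hsp70 group. Atg4c, a protease that processes LC3-family proteins, had a range of 1.20 set by 1 library: it was at 10.48 in normal glucose replicate 1 and between 9.28 and 10.05 in the other libraries.

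**Figure D2:**
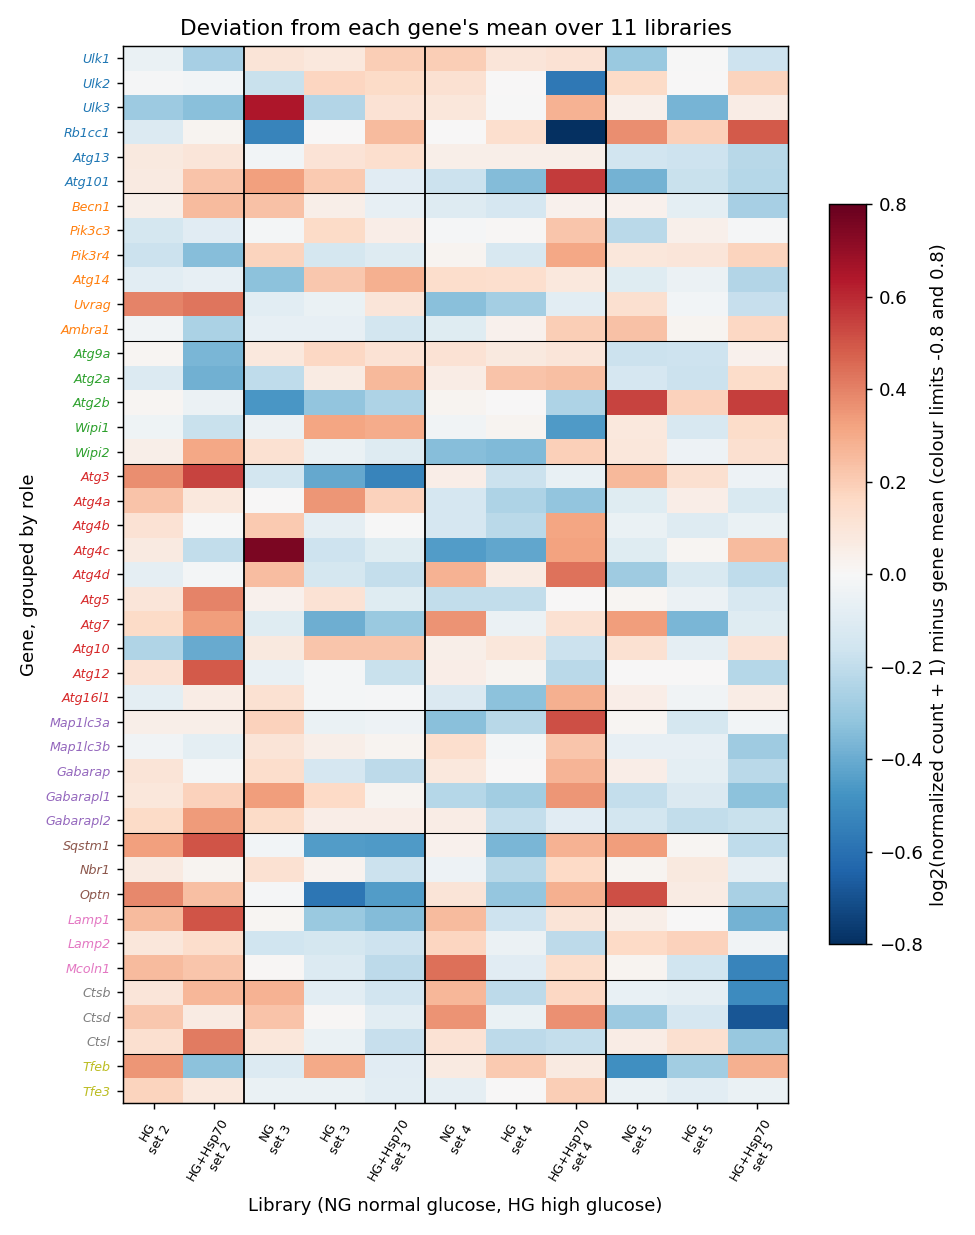
Each gene's log2(normalized count + 1) minus its own mean, for 43 genes (rows, grouped by role and coloured by it) and 11 libraries (columns, ordered by file set); colours are limited at -0.8 and 0.8. In set 3 Atg3 and Sqstm1 are at or below their means in every library, and the Hsp70 library of set 4 holds both high (Atg101, Map1lc3a) and low (Rb1cc1, Ulk2) values.

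High glucose was compared with normal glucose to see which autophagy and lysosome transcripts go with raised glucose in these cells. None of the 43 passed limma at an adjusted p of 0.05, and neither did any other gene (0% of 18248 called). At an unadjusted p under 0.05 there was 1 member (Ulk3), against 1.01% of all genes. The member differences ran from -0.48 to 0.32 log2 units, with a median SE of 0.18, and their 95% intervals reached from -0.92 to 0.79. The low limit was that of Ulk3 and the high limit that of Tfeb. Intervals differed between members, with -0.52 to 0.74 for Rb1cc1 and -0.21 to 0.35 for Tfe3. The size of change that these libraries leave undecided therefore differs by member.

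Ulk3, a kinase related to Ulk1 (mm10 chr9:57589452-57596233, plus strand), had the smallest p. It was at 8.88, 8.32 and 8.27 in normal glucose and at 7.94, 8.0, 8.23 and 7.86 in high glucose. All high glucose libraries were below all normal glucose libraries, and Ulk3 was the only member whose groups did not overlap (2.33% of members, against 1.32% of all genes lower without overlap). The difference was -0.48 (SE 0.20; limma p = 0.0331, adjusted p = 1; two-sided exact permutation p = 0.0571, where 35 splits allow 0.0286). Much of it came from normal glucose replicate 1: without that library the difference was -0.29, and without set 3 -0.28.

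Atg7, the E1-like enzyme that both ubiquitin-like conjugation systems need, was at 9.95, 10.41 and 10.38 in normal glucose and at 10.20, 9.66, 10 and 9.68 in high glucose. The groups overlapped, but within each set the high glucose library was lower, by 0.29, 0.40 and 0.70 log2 units in sets 3, 4 and 5. The group means were 10.25 ± 0.26 (SD, n = 3) and 9.89 ± 0.26 (SD, n = 4), a difference of -0.36 that limma gave an adjusted p of 1. With the file set as a replicate block the difference was -0.47 (SE 0.11, unadjusted p = 0.00264, adjusted p = 1).

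The cargo receptor genes Sqstm1 and Optn, whose proteins tie ubiquitinated cargo to LC3, had the same layout. Sqstm1 was at 14.53, 14.59 and 14.89 in normal glucose and at 14.88, 14.11, 14.19 and 14.57 in high glucose. Optn was at 9.26, 9.37 and 9.78 against 9.65, 8.69, 8.96 and 9.33. Across all libraries both overlapped. The high glucose library of set 2 was high and has no normal glucose partner. That of set 5 was also above normal glucose replicate 1, at 14.57 against 14.53 for Sqstm1 and 9.33 against 9.26 for Optn. Within sets 3, 4 and 5 Sqstm1 was lower by 0.42, 0.40 and 0.31 and Optn by 0.57, 0.41 and 0.45. With the block, 4 members had an unadjusted p under 0.05 (Ulk3, Atg7, Sqstm1 and Optn; 9.3%), against 3.49% of all genes, and no member or other gene passed the adjusted threshold.

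Tfeb, the master regulator of lysosomal genes, was the member with the largest positive difference. It was at 7.66, 7.84 and 7.28 in normal glucose and at 8.12, 8.07, 7.98 and 7.49 in high glucose, a difference of 0.32 (SE 0.22; limma p = 0.172, adjusted p = 1; two-sided exact permutation p = 0.229). The high glucose libraries of sets 2, 3 and 4 were above all normal glucose libraries and that of set 5 was not. Within sets 3, 4 and 5 the difference was 0.41, 0.14 and 0.21, and leaving out 1 library gave 0.16 (without normal glucose replicate 3) to 0.46. Ctsb was lower by 0.23 (SE 0.20) and Pik3r4, the regulatory subunit of the PI3-kinase complex, by 0.18 (SE 0.17), both with overlapping groups and adjusted p of 1.

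Read within the sets, members lower in high glucose were more frequent than members higher. In all 3 sets, 15 of 43 members were lower (34.9%), against 14.3% of all genes tested and 16.4% of genes at or above the lowest member mean. These were Ulk3, Becn1, Wipi2, Atg3, Atg4b, Atg7, Atg16l1, Map1lc3b, Gabarap, Gabarapl2, Sqstm1, Optn, Lamp1, Mcoln1 and Ctsb. Only Pik3c3, the lipid kinase, and Tfeb were higher in all 3 sets (4.65%, against 11.3%). The number lower depended on the set and the scaling: it was 11 (25.6%, against 13.3%) after quantile normalization, 18 (41.9%, against 27.6%) in sets 4 and 5 alone, 16 (37.2%, against 25.8%) in sets 3 and 5 alone, and 23 (53.5%, against 25.3%) in sets 3 and 4 alone. No test was made of these shares, and genes of 1 library are not independent.

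**Figure D3:**
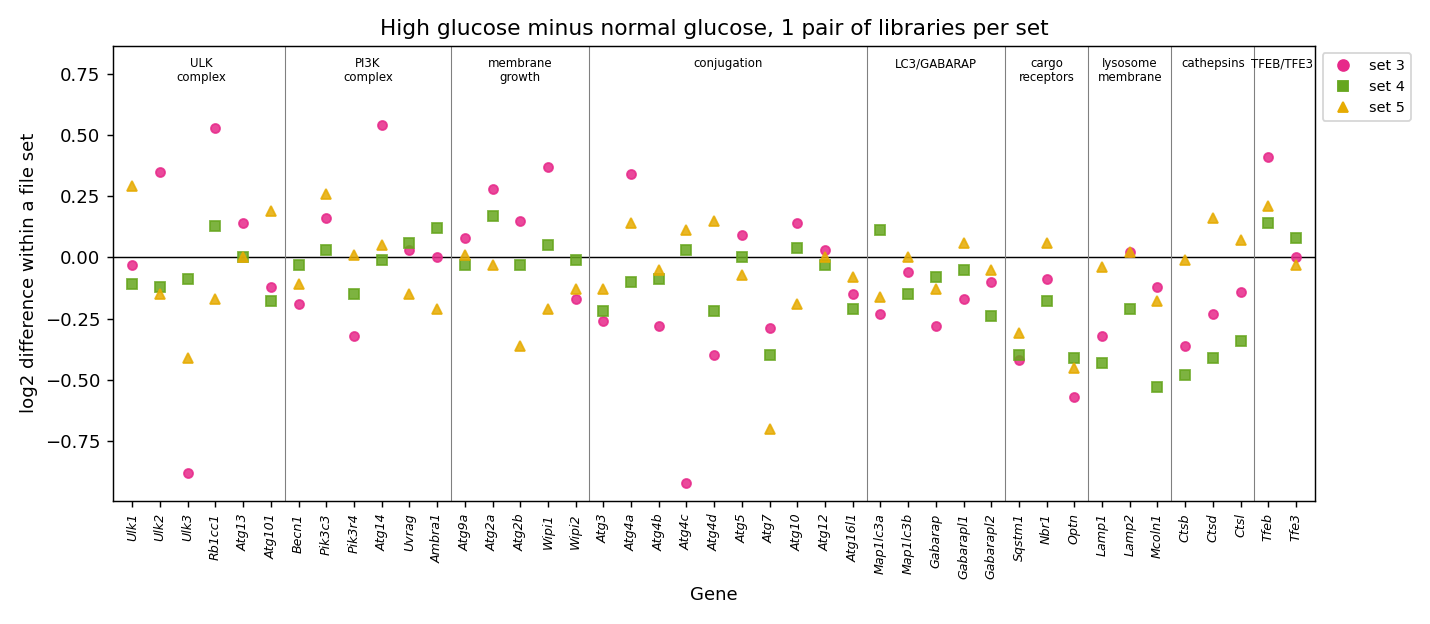
High glucose minus normal glucose in log2 units for each of 43 genes, 1 point per file set (3, 4 and 5), grouped by role. All points of Sqstm1, Optn and Atg7 are below 0, Ulk3 and Atg4c have the lowest points (both in set 3), and the points of Tfeb are above 0.

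The signs of the differences were counted by role. All 5 LC3 and GABARAP genes, all 3 cargo receptors, all 3 lysosomal membrane genes and all 3 cathepsins had differences below 0, against 52.1% of all genes. The ULK complex had 1 of 6 below 0 (Ulk3), the PI3-kinase complex 3 of 6, the membrane growth genes 2 of 5, the conjugation genes 7 of 10 and the transcription factors 0 of 2. Lamp1 was lower by 0.32, 0.43 and 0.04 in sets 3, 4 and 5, and the lysosomal calcium channel gene Mcoln1 by 0.12, 0.53 and 0.18. The cathepsins were lower in sets 3 and 4 with medians of -0.23 and -0.41, but had a median of 0.074 in set 5. Over all members 27 of 43 were below 0 (62.8%). Set by set, 25 members were lower in set 3 (58.1%, against 49.8% of all genes), 31 in set 4 (72.1%, against 47.2%) and 27 in set 5 (62.8%, against 55.7%).

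Genes around the members were taken from pathway lists, with none called in any list. Of 30 other lysosomal hydrolases, 17 were lower in all 3 sets (56.7%); Sgsh, which degrades heparan sulfate, was lower by 0.45, 0.44 and 0.37. Of 16 subunit genes of the V-ATPase, the proton pump that acidifies lysosomes, 11 were lower in all 3 sets (68.8%), among them Atp6v0c by 0.33, 0.41 and 0.27. The shares were 44.4% of 18 vesicle fusion genes, 35.7% of 28 mTORC1 and AMPK genes and 12.5% of 16 other selective receptors. They were 40% of 10 other lysosomal proteases and 33.3% of 24 lysosomal activators and membrane genes. Lower still were 27.3% of 11 other core autophagy genes and 26.7% of 15 other regulators. Of the other core autophagy genes, 27.3% were higher in all 3 sets, against 11.3% of all genes. Between the group means, 3 of these 11 and 12 of the 28 mTORC1 and AMPK genes were below 0. Without set 3, 27.6% of all genes were lower in both remaining sets. The shares were then 73.3% of the hydrolases, 93.8% of the V-ATPase subunits and 55.6% of the fusion genes. They were 53.6% of the mTORC1 and AMPK genes, 25% of the selective receptors and 40% of the other proteases. For the activators and membrane genes the share was 58.3%, for other core autophagy 36.4% and for other regulators 60%. Beside these values, the summed fibroblast markers were higher in high glucose than in normal glucose in each set (432000 against 357600, 294200 against 272300, and 253700 against 212100), and so were the summed leukocyte markers (6161 against 5551, 684.1 against 620.6, and 603.9 against 566.1). These sums follow the most abundant markers. Counted gene by gene, 12 of 17 leukocyte markers were below 0 between the group means (median -0.50), and 6, 9 and 9 of 17 were lower in high glucose in sets 3, 4 and 5; of the 10 fibroblast markers, 4 were below 0 between the group means (median 0.037), and 4, 3 and 3 were lower in the sets. The part of these cell types in the result was not tested.

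**Figure D4:**
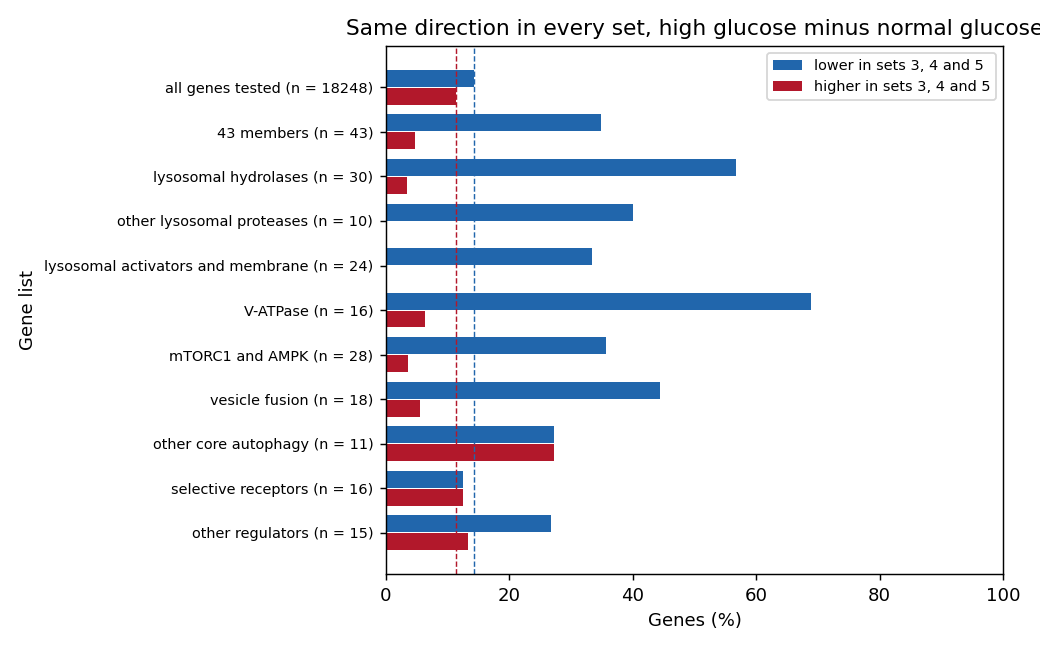
Percent of genes lower (blue) or higher (red) in high glucose than in normal glucose in all of sets 3, 4 and 5, for all genes tested, the 43 members and 9 pathway lists; dashed lines mark the values of all genes tested. The lower bar is longest for the V-ATPase (68.8%) and the lysosomal hydrolases (56.7%) and is 14.3% for all genes.

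Hsp70 in high glucose was compared with high glucose alone to see which members go with the added chaperone. No member and no other gene passed limma (0% called), and 0 members had an unadjusted p under 0.05, against 0.745% of all genes; with the file set as a block it was also 0, against 1.67%. Differences ran from -0.16 to 0.26, with a median SE of 0.17, and 20 of 43 were below 0 (46.5%, against 49.3%). This comparison and the previous one share the high glucose libraries, so a library that is low there raises one difference and lowers the other.

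Atg16l1, which places the conjugation enzyme at the growing membrane, had the smallest p. It was at 9.28, 9.34, 9.03 and 9.33 in high glucose and at 9.42, 9.35, 9.64 and 9.42 with Hsp70. The groups did not overlap, which held for this member only (2.33%, against 0.285% of all genes higher), although 9.34 and 9.35 are neighbours. The difference was 0.21 (SE 0.13; limma p = 0.125, adjusted p = 1; two-sided exact permutation p = 0.0286, the smallest that 70 splits allow, unadjusted for the 43 members tested). The difference was 0.61 within set 4 and 0.14, 0.01 and 0.08 within sets 2, 3 and 5. The small RNA gene Scarna6 lies inside Atg16l1 on the same strand, and how its reads were counted is not given in the sources used here.

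Atg7 was higher with Hsp70 within each of sets 2 to 5, by 0.19, 0.09, 0.17 and 0.27. The Hsp70 libraries were at 10.38, 9.75, 10.17 and 9.95, inside the range of the normal glucose and high glucose libraries together. Ulk3, at 7.90, 8.35, 8.51 and 8.29 with Hsp70, was higher within sets 3, 4 and 5 by 0.35, 0.28 and 0.43 and lower by 0.04 in set 2. Its mean difference of 0.26 (SE 0.19) had an adjusted p of 1.

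Wipi2, which reads the lipid made by the PI3-kinase complex, differed by 0.23 (SE 0.15). Its values were 10.99, 10.89, 10.59 and 10.90 in high glucose and 11.25, 10.84, 11.13 and 11.07 with Hsp70, and the groups overlapped through the set 3 library alone. Map1lc3a differed by 0.21 (SE 0.16), of which the largest share came from 1 library: Hsp70 replicate 3 was at 10.41 and the other 3 between 9.85 and 9.94. Without it the difference was 0.082. Atg4b, which primes LC3 for conjugation, differed by 0.13 (SE 0.14) and likewise rested on Hsp70 replicate 3, at 9.97 against 9.60 to 9.65 in the others.

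Within all 4 sets, 3 members were higher with Hsp70 (Atg7, Atg16l1 and Gabarapl2; 6.98%, against 3.89% of all genes) and 1 was lower (Atg4a; 2.33%, against 4.42%). For Gabarapl2 the set 3 difference was 0.00 to 2 decimals. Without set 3, 4 were higher (9.3%, against 8.63%) and 1 lower (2.33%, against 8.67%). Leaving out another set gave 9, 4 and 5 higher and 3, 6 and 5 lower, without sets 2, 4 and 5. Sets 4 and 5 pointed opposite ways, but pairing by set did not hold for set 4. After taking out group means, its Hsp70 and high glucose libraries correlated at 0.0586, against 0.262 in set 5. In set 4, 10 of 43 members were lower with Hsp70 (23.3%, against 53.1% of all genes), with a member median of 0.19. In set 5, 24 of 43 were lower (55.8%, against 47.8%), with a median of -0.068.

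Single members differed in how far the sets disagreed. Rb1cc1 differed by -0.97 in set 4 and 0.30 in set 5, while Lamp2 was lower in both, by 0.16 and 0.21. Ctsb differed by 0.38 in set 4 and -0.43 in set 5, Ctsd by 0.42 and -0.55, and Sqstm1 by 0.64 and -0.23. The 30 other lysosomal hydrolases had medians of 0.29 and -0.19 in these sets, and the V-ATPase subunits 0.25 and -0.21. In sets 2 and 3 the member medians were -0.0082 and -0.026, with 22 (51.2%, against 47.7%) and 27 members lower (62.8%, against 49.5%). The Hsp70 library of set 4 held the highest value of 13 members and the lowest of 5, and that of set 5 held the lowest of 11. Across the 43 members the set 4 difference had a Pearson r of -0.349 with log2 exon length, while the values in sets 2, 3 and 5 were -0.0153, 0.281 and 0.196; genes of 1 library pair are not independent, and the part of length in the result was not tested.

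**Figure D5:**
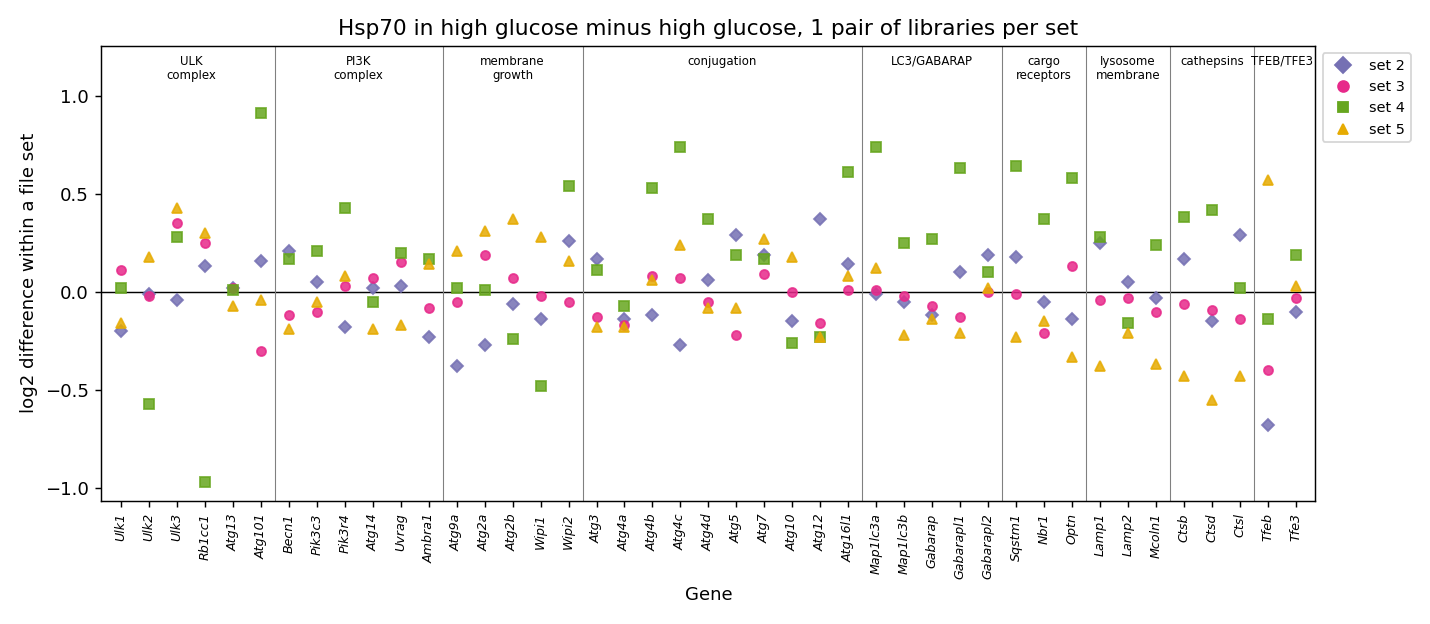
Hsp70 in high glucose minus high glucose in log2 units for each of 43 genes, 1 point per file set (2 to 5), grouped by role. For the cathepsins, lysosomal membrane genes and cargo receptors most set 4 points are above 0 and all set 5 points are below 0; Rb1cc1 and Atg101 have the most distant set 4 points.

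Hsp70 in high glucose was also compared with normal glucose, whose libraries serve in the first comparison too. No member and no other gene passed (0% called), and 0 members had an unadjusted p under 0.05, against 0.975% of all genes. With the file set as a block there were 2 (Atg7 and Mcoln1; 4.65%, against 3.22%). No member's groups were free of overlap, against 0.482% of all genes higher and 1.24% lower. In all 3 sets, 9 members were lower (20.9%, against 9.92%): Atg3, Atg7, Atg12, Gabarapl2, Lamp1, Lamp2, Mcoln1, Ctsb and Ctsl. Pik3c3 and Atg2a, a lipid-transfer protein, were higher in all 3 (4.65%, against 7.62%). Without set 3 the number lower was 12 (27.9%), close to the 27.1% of all genes; it was 21 (48.8%, against 26.8%) without set 4 and 9 (20.9%, against 17.3%) without set 5. In total 26 of 43 were below 0 (60.5%, against 50.9%), with 29 lower in set 3 (67.4%, against 49.6%), 19 in set 4 (44.2%, against 54.3%) and 26 in set 5 (60.5%, against 49.7%).

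Mcoln1 had the smallest p. It was at 9.94, 10.37 and 9.95 in normal glucose and at 10.15, 9.72, 10.07 and 9.40 with Hsp70, so the groups overlapped. Within sets 3, 4 and 5 it was lower by 0.22, 0.29 and 0.55, and the mean difference was -0.25 (SE 0.20; limma p = 0.239, adjusted p = 1; two-sided exact permutation p = 0.314). Ctsb was at 15.53, 15.52 and 15.19 against 15.52, 15.10, 15.42 and 14.75, a difference of -0.21 (SE 0.20), and Optn differed by -0.25 (SE 0.25). Optn was lower in sets 3 and 5, by 0.44 and 0.78, and higher by 0.18 in set 4. Ulk3 differed by -0.23, and Wipi2 and Map1lc3a by 0.17 each; all 3 changed sign between sets.

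File sets were compared because their libraries resembled each other. The contrast of set 3 was chosen with earlier results of these data known. Set 3 is 1 set, so the p-values here do not measure the spread between sets. With the group as a term, 3 of 43 members differed among the 4 sets at an adjusted p of 0.05 (6.98%, against 11.9% of all genes): Atg3 (adjusted p = 0.0141), Atg2b (0.0369) and Atg7 (0.0492), by limma. These same 3 were lower in set 3 than in the other sets, and 0 members were higher (4.48% of all genes were lower and 8.21% higher). The count was not stable: leaving out 1 library at a time gave 0 to 11 members differing among sets and 0 to 7 between set 3 and the rest. The highest counts came without Hsp70 replicate 3. The first count was within 1.5 times the main value without high glucose replicate 4 only; the second also without normal glucose replicate 2 or Hsp70 replicate 4.

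Atg3 (mm10 chr16:45158785-45188538, plus strand) was at 11.93, 11.67 and 11.55 in the set 3 libraries of normal glucose, high glucose and Hsp70. It was at 12.45 and 12.62 in set 2, at 12.13, 11.91 and 12.02 in set 4 and at 12.34, 12.21 and 12.04 in set 5. Set 3 overlapped the others through its normal glucose library alone. The set 3 difference was -0.56 (SE 0.10, adjusted p = 0.00595 by limma), and it missed the threshold without high glucose replicate 2 (adjusted p = 0.0572) or Hsp70 replicate 2 (0.0633).

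Atg7 was lower in set 3 by 0.42 (SE 0.099, adjusted p = 0.0233). Atg2b, a lipid-transfer protein that feeds the growing membrane, was at 10.44, 10.59 and 10.66 in set 3 and at 10.66 to 11.46 elsewhere, a difference of -0.46 (SE 0.12, adjusted p = 0.0387). The calls for these genes were lost without most single libraries, with adjusted p up to 0.119 for Atg7 and 0.159 for Atg2b: Atg7 passed only without normal glucose replicate 2, high glucose replicate 4 or Hsp70 replicate 3 or 4, and Atg2b only without high glucose replicate 4 or Hsp70 replicate 3. Atg2b overlaps Gskip on the opposite strand, as Lamp1 does Grtp1, Ctsb does Fdft1 and Atg4b does Thap4, and whether the counting used strand is not given in the sources used here.

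Against set 2 alone, set 3 was lower for 5 members (Atg3, Atg7, Sqstm1, Lamp1 and Optn; 11.6%, against 10.9% of all genes called). Against the other sets together, Optn and Sqstm1 also had lower means in set 3 but did not pass, with differences of -0.54 (adjusted p = 0.0534) and -0.49 (0.0582). Lamp1 differed by -0.35 and Lamp2, its sister glycoprotein, by -0.23, with adjusted p of 0.107 and 0.199. Of the 30 other lysosomal hydrolases, 8 were called lower in set 3 and 0 higher, against 4.48% and 8.21% of all genes. By sign alone, 28 of the 30 were below 0. Galc, a galactosylceramidase, was lower by 0.77 (adjusted p = 0.00147). The lysosomal proteases split: Ctss, a protease abundant in macrophages, was higher by 4.96 (adjusted p = 3.7e-05) and Ctsk lower by 1.60 (adjusted p = 0.000337). Set 3 is also where the leukocyte markers were high, with 16 of 17 called higher and a median difference of 4.47. Called higher there too were 13 of 17 endothelial markers (median 2.07) and 7 of 9 Schwann cell and nerve markers (2.40). So were 5 of 12 smooth muscle and pericyte markers (0.38) and 4 of 10 fibroblast markers (0.47). In the endothelial, smooth muscle and pericyte, and fibroblast lists 1 marker each was called lower. In the smooth muscle and pericyte list it was Cspg4, lower by 1.60 (adjusted p = 3.04e-05 by limma). Among all genes, 8.21% were called higher and 4.48% lower. The part of these cell types in the member differences was not tested.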

How the data were processed

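The authors deposited 1 table per library, in log2 units, read here from the values as log2(normalized count + 1). TopHat, edgeR and mm10 are named without versions, per the submitters' processing notes; which normalization, annotation and strand setting were used is not given in the sources used here. Of 23282 rows, 44 repeats of a symbol were dropped, keeping the copy with the highest mean. The test took genes that reached a normalized count of 1 in 3 or more libraries, and used limma 3.58.1 (R 4.3.3): 3 group means, trended prior, robust variances, Benjamini-Hochberg adjustment over 18248 genes at 0.05. Set differences had group as a term. The fit was tested on simulated data. Single members also had two-sided exact permutation tests. Positions and exon lengths came from GENCODE M21.

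Members and lists were chosen with earlier results of these data known. In each comparison full values were due to the 6 members with the smallest p, those called, those whose groups did not overlap, and a fixed set of well-known members.

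File sets came from file names. After taking out group means, high and normal glucose libraries of sets 3, 4 and 5 correlated at 0.594, 0.302 and 0.285, so the set was used there as a block beside the main fit. Alternatives were other scalings, filters, pseudocounts, weights, sets and left-out libraries.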

Additional observations from a re-analysis of the deposited data

Results flagged for a closer look

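In groups of 4 libraries, a value was set aside for a closer look when its gap to the nearest other library, as a share of the group's range, passed Dixon's critical value for 4 samples. This met 9 of 86 groups of 4. The nominal rate of that critical value is about 1 in 20 for independent groups. Members of 1 library are not independent, and the share over all genes was not counted, so no excess is read from this. Of the 9, 3 were in Hsp70 replicate 1 and 2 in Hsp70 replicate 3. All values are log2(normalized count + 1).

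In Hsp70 replicate 1, Atg12, the ubiquitin-like protein joined to Atg5, stood at 10.41 above 9.69 to 9.74 in the other 3. The same library had Ctsl at 15.79, above 15.07 to 15.19, and Atg9a, the membrane protein of autophagy vesicles, at 8.86, below 9.26 to 9.34. In Hsp70 replicate 3, Map1lc3a was at 10.41, above 9.85 to 9.94, and Atg4b at 9.97, above 9.60 to 9.65.

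In the high glucose group each replicate had 1 such value. Mcoln1 was at 10.18 in replicate 1, above 9.77 to 9.84. Ulk2 was at 10.58 in replicate 2, above 10.40 to 10.41. The cargo receptor gene Nbr1 was at 12.18 in replicate 3, below 12.43 to 12.48. Pik3r4 was at 10.49 in replicate 4, above 10.22 to 10.26.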

How the results depend on the processing

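In each of the 3 group comparisons, 0 members were called under any of 26 alternatives, including the replicate block by file set (0 called) and by title number. Counts with the block at an unadjusted p stand beside the results. The Hsp70 libraries correlated with their high glucose partner of the same set at 0.422, 0.691, 0.0586 and 0.262 (sets 2 to 5), and with their normal glucose partner at 0.458, 0.0219 and 0.372 (sets 3 to 5). Set 4 was under 0.1 in both and the other sets were above it, so pairing by set did not hold for every set in these groups.

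Signs reversed, near 0, without set 3 and with the block for Pik3r4 (high minus normal glucose, 0.0045) and Ulk3 (Hsp70 minus normal glucose, 0.040), and without Hsp70 replicate 3 and with the block for Atg4b (Hsp70 minus high glucose, -0.0029), Wipi2 and Map1lc3a (Hsp70 minus normal glucose, -0.024 and -0.087). These settings were chosen after seeing the data. Members lower in every set in high glucose went from 15 to 23 without set 5, where only 2 sets had to share a sign. Leaving out sets 2, 4 or 5, and the pathway lists without set 3, were also chosen after seeing the data. Members below 0 ranged from 21 to 30, 11 to 30 and 22 to 30 in the 3 comparisons.

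Members differing among file sets went from 3 to 1 with quantile normalization, to 1 with no trend and no robust variances, to 21 with sample weights, and to 0 to 11 leaving out 1 library. Members called between set 3 and the others went from 3 to 5 with median centring, 1 with no trend, 11 with sample weights, and 0 to 7 leaving out 1 library. The cause was not tested.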

Other observations

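A few genes next to the members had larger differences that did not pass the test. Lamp3, a lysosomal membrane protein related to Lamp1, was 1.06 log2 units higher with Hsp70 than in high glucose alone (SE 0.53, adjusted p = 1 by limma), by 0.16, 2.06, 0.85 and 1.16 in sets 2 to 5. Dnase2a, the lysosomal DNase, was 0.47 lower with Hsp70 than in normal glucose (SE 0.21, adjusted p = 1 by limma), by 0.69, 0.15 and 0.60 in sets 3 to 5. Ctsk, a collagen-degrading cathepsin, was lower in high than in normal glucose within each of sets 3 to 5, by 0.85, 1.12 and 0.65, beside a difference between group means of -0.55 (SE 0.63).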
